A study of Homo sapiens with 12 samples.

Results

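The genes described are the long non-coding RNAs MALAT1 and NEAT1 and 7 genes for proteins found in paraspeckles: SFPQ, NONO, PSPC1, RBM14, HNRNPK, DAZAP1 and TARDBP. They were named by their known roles and chosen by their share of counts, CPM and JQ1 response in earlier readings of these data, with no threshold. The p-values below therefore describe the members and are no independent support. These 9 genes are taken out of the 60666 Ensembl IDs of the count table, and all 9 were among the 23493 genes that passed the filter on low counts. RNA was sequenced from KMS-11, KMS-12 and RPMI8226, which are established human lines of multiple myeloma. Each line was given the BET bromodomain inhibitor JQ1 at 1 µM for 72 h, or its solvent DMSO in an equal volume. All 6 groups share the genotype label WT and the same culture medium, and each holds 2 libraries, so that there are 12 in all. Every result below concerns these 3 lines in culture.

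MALAT1 and NEAT1 are transcribed next to each other, do not code for protein and stay in the nucleus. MALAT1 collects at nuclear speckles, bodies rich in splicing factors. NEAT1 is the scaffold of the paraspeckle, a nuclear body that forms on the long isoform of this RNA and dissolves without it. SFPQ, NONO and PSPC1 are related RNA-binding proteins that coat NEAT1. HNRNPK favours the long isoform, RBM14 and DAZAP1 are needed for intact paraspeckles, and TARDBP encodes TDP-43, which binds NEAT1. JQ1 occupies the acetyl-lysine pockets of BET proteins, readers of acetylated histones that support transcription. The question asked of the data was whether the paraspeckle protein genes move with NEAT1 under JQ1.

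NEAT1 (ENSG00000245532) lies on chromosome 11 from 65422774 to 65445540 and MALAT1 (ENSG00000251562) from 65497688 to 65506516, both on the plus strand in GENCODE 29 on GRCh38. Both RNAs end in a fold that resembles a transfer RNA, which RNase P cuts off the long isoform of NEAT1 and off MALAT1. GENCODE lists these small RNAs under a shared Rfam family name. They are shown because they mark the 3′ ends at which the pair of RNAs is matured in the same way. Capitals mark the bases that are identical in a global alignment of the pair, 41 of 61 aligned columns or 67.2%.
MALAT1 small RNA, chr11:65506117-65506173, plus strand: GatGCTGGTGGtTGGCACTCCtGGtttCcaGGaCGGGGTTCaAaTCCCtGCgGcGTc
NEAT1 small RNA, chr11:65445541-65445598, plus strand: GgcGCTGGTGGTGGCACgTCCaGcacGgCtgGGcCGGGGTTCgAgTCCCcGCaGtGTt

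The row of the small RNA at the end of NEAT1 held 152 reads over the 6 JQ1 libraries and 111 over the 6 DMSO libraries, and the row of the one inside MALAT1 held 0 in both. MALAT1 itself held 22967627 JQ1 and 7365342 DMSO reads, and NEAT1 held 7333598 and 2343924. An antisense gene inside MALAT1, AP000769.2, held 172 JQ1 and 55 DMSO reads. The libraries were made with a stranded kit, per the labels' protocols, and whether counting used the strand is not given in the sources used here. The table has 1 row per gene, so that the short and long isoforms of NEAT1 could not be told apart.

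MALAT1 has 2 start sites in the RefSeq promoter table (GRCh38.p14), and both windows, from 250 bases before to 50 after each start, are shown because MALAT1 had the most reads of any gene. Capitals mark the letters TATAAA.
MALAT1 start 1, chr11:65497488-65497787, plus strand: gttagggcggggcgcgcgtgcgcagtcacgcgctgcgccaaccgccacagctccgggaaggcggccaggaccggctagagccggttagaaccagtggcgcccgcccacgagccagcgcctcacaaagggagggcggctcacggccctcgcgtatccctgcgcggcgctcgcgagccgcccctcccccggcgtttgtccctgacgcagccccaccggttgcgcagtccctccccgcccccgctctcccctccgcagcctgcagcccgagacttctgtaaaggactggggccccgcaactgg
MALAT1 start 2, chr11:65498795-65499094, plus strand: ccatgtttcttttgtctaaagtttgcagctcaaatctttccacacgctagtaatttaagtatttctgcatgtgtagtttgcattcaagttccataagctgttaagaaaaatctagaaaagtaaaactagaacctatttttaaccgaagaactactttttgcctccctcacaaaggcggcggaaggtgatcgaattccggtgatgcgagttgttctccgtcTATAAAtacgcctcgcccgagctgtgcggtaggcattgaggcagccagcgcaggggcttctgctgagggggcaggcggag

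Windows of 300 bases were found for 7 of the 9 genes, all but NEAT1 and SFPQ, and 9 such windows were searched on both strands. TATAAA occurred in 1 of them, at the second MALAT1 start, and in 11.5% of all 35116 windows in the table. CCAAT occurred in 3 of the 9, at RBM14, NONO and 1 of the starts of HNRNPK, and in 34.6% of all windows. CACGTG occurred in 0 of the 9 and in 7.26% of all windows. GC content was 73.7% at the first MALAT1 start and 46% at the second. The counts per gene do not tell the starts apart.

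Library totals ran from 15424512 to 27366499 counts, mitochondrial genes took 1.65% to 2.81%, and replicates of a group were farther apart than counting error allows (chi-square per degree of freedom 5.64 to 22.3). The labels do not say that replicates were separate cultures, so p-values rest on a spread between libraries that may be technical only. The line labels fitted the translocation genes: in DMSO, FGFR3 had 127474 reads for KMS-11, 4 for KMS-12 and 1 for RPMI8226, and MAF had 80469 for KMS-11, 0 for KMS-12 and 47114 for RPMI8226. Plasma cell markers IRF4, XBP1, PRDM1 and SDC1 had between 3505 and 93079 reads in each of the 6 groups, and the plasma cell markers TNFRSF17 and SLAMF7 had 6 to 391 reads in JQ1 groups and 329 to 4694 in DMSO groups. The 10 T, NK, myeloid and stromal markers had at most 505 reads in a group, with NKG7 at 0 throughout and CD3D at no more than 1. Fewer cells and less RNA per cell cannot be told apart in bulk libraries.

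MALAT1 took the largest number of reads and NEAT1 the next largest in each of the 12 libraries, and both RNAs took larger shares of the reads in JQ1 than in DMSO libraries of every line. MALAT1 accounted for 16.5% and 14.5% of all counts in the KMS-11 JQ1 libraries, against 3.98% and 3.61% in DMSO. In KMS-12 it accounted for 25.7% and 25.8% in JQ1 and for 8.06% and 9.01% in DMSO. In RPMI8226 it accounted for 6.56% and 6.31% in JQ1 and for 4.11% and 4.58% in DMSO. The JQ1 and DMSO libraries of each line did not overlap, and the gap was narrowest in RPMI8226. Wilson 95% intervals of the single-library shares of MALAT1 and NEAT1 had half-widths of 0.00456 to 0.0167 percentage points, which cover counting error only.

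NEAT1 accounted for 3.55% and 2.998% of counts in the KMS-11 JQ1 libraries, against 1.47% and 1.86% in DMSO. In KMS-12 it accounted for 10.01% and 9.25% in JQ1 and for 2.497% and 2.15% in DMSO. In RPMI8226 it accounted for 2.16% and 1.77% in JQ1 and for 1.46% and 1.19% in DMSO. Again the groups did not overlap in any line, and the KMS-12 JQ1 libraries stood highest. MALAT1 and NEAT1 together made up 35.7% and 35.1% of all counts in KMS-12 JQ1, against 10.6% and 11.2% in KMS-12 DMSO. The share of counts outside both RNAs was 64.6% in KMS-12 JQ1 and 89.1% in DMSO, a log2 difference of -0.46. That difference was -0.22 in KMS-11 and -0.04 in RPMI8226.

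**Figure D1:**
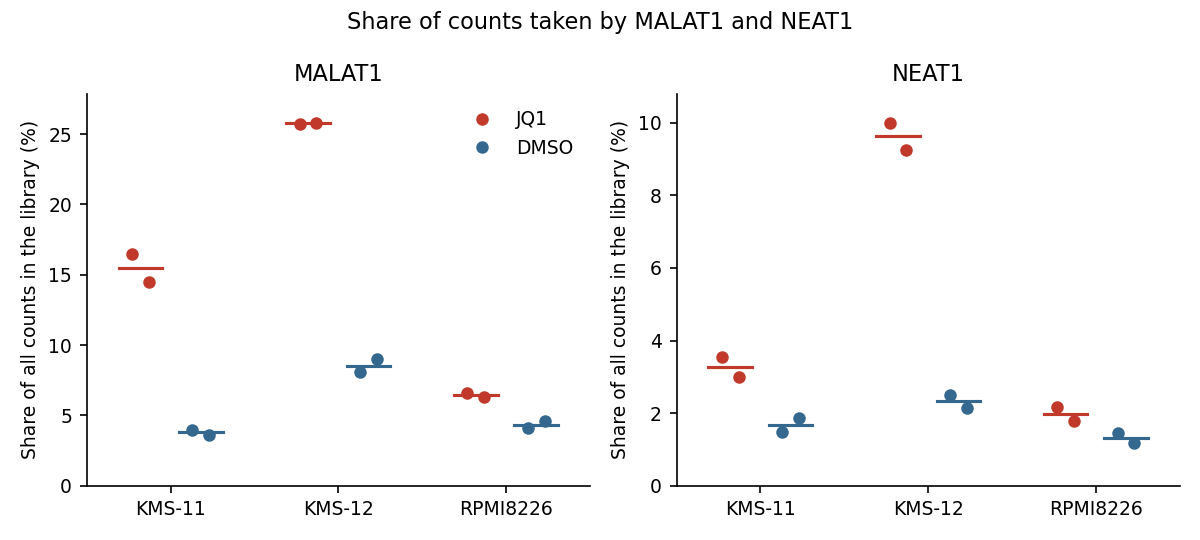
Share of all counts (%) taken by MALAT1 (left) and NEAT1 (right) in each library, with JQ1 in red and DMSO in blue for each line; points are libraries and bars are means of 2. MALAT1 reached 25.8% and NEAT1 10.01% in KMS-12 JQ1, and no JQ1 library fell to the level of its line's DMSO libraries.

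For the comparisons below, CPM, counts relative to a fixed library total, were computed with library sizes scaled by TMM, which sets most genes to no change, and a gene was called when its p, taken from edgeR's quasi-likelihood test and adjusted by the Benjamini-Hochberg method (BH) over all 23493 genes, was under 0.05. On that scale MALAT1 rose 4.89-fold in KMS-11 (log2 2.29, SE 0.17; edgeR, BH-adjusted p = 9.35e-09). It rose 5.14-fold in KMS-12 (log2 2.36, SE 0.17; edgeR, BH-adjusted p = 4.14e-09). In RPMI8226 it rose 1.51-fold (log2 0.60, SE 0.16; edgeR, BH-adjusted p = 0.00756), and this call was lost without RPMI8226 DMSO replicate 1 (log2 0.53; edgeR, BH-adjusted p = 0.0751, the top of a range that began at 0.000163 when single libraries were left out). The average of the 3 lines was a log2 rise of 1.75 (SE 0.09; edgeR, BH-adjusted p = 5.65e-11).

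NEAT1 rose 2.35-fold in KMS-11 (log2 1.23, SE 0.18; edgeR, BH-adjusted p = 3.24e-05) and 7.07-fold in KMS-12 (log2 2.82, SE 0.19; edgeR, BH-adjusted p = 2.72e-09). In RPMI8226 it rose 1.51-fold (log2 0.60, SE 0.18; edgeR, BH-adjusted p = 0.0162). The RPMI8226 call of NEAT1 was lost without JQ1 replicate 1 (log2 0.43; edgeR, BH-adjusted p = 0.133) and without DMSO replicate 2 (log2 0.44; edgeR, BH-adjusted p = 0.174), and also with other filters on low counts. The average of the lines was a log2 rise of 1.55 (SE 0.11; edgeR, BH-adjusted p = 1.21e-09). With library size alone as the scale, both RNAs were still higher in each line, NEAT1 by 0.98, 2.05 and 0.57 and MALAT1 by 2.03, 1.59 and 0.57 on the log2 scale in KMS-11, KMS-12 and RPMI8226.

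The lines differed in how far MALAT1 and NEAT1 rose. An F test of any difference among the 3 JQ1 responses called 30.1% of all genes tested and 3 of the 9 genes: MALAT1, NEAT1 and SFPQ. Between KMS-12 and KMS-11 the response was called for 2 genes, both higher in KMS-12, where 20% of all genes were called, 10.1% higher and 9.87% lower. RPMI8226 differed from KMS-11 in 1 gene, lower, where 11.4% were called, 6.7% higher and 4.72% lower. It differed from KMS-12 in 3 genes, all lower, where 23.4% were called, 12.3% higher and 11.1% lower. For MALAT1 the response was smaller in RPMI8226 than in KMS-11 (difference of the log2 changes -1.69, SE 0.22; edgeR, BH-adjusted p = 6.95e-05) and smaller than in KMS-12 (-1.77, SE 0.22; edgeR, BH-adjusted p = 1.70e-05). The responses of MALAT1 in KMS-12 and KMS-11 differed by 0.07 (SE 0.22), past no threshold (edgeR, BH-adjusted p = 0.950). For NEAT1 the response of KMS-12 exceeded that of KMS-11 by 1.59 (SE 0.25; edgeR, BH-adjusted p = 0.000195), and the response of RPMI8226 minus that of KMS-12 was -2.22 (SE 0.26; edgeR, BH-adjusted p = 5.79e-06). The NEAT1 rise of KMS-12 thus exceeded that of both other lines. The NEAT1 response of RPMI8226 minus that of KMS-11 was -0.64 (SE 0.25; edgeR, BH-adjusted p = 0.128). This difference passed in 2 of the 10 alternatives that kept all libraries. Among them was the replicate number as a block within each line (-0.65; edgeR, BH-adjusted p = 0.0327). Without KMS-11 DMSO replicate 2 the difference was -0.90.

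The ratio of MALAT1 to NEAT1 reads does not depend on library scaling. In KMS-11 the JQ1 libraries had 4644 and 4839 MALAT1 reads per 1000 NEAT1 reads, against 2713 and 1947 in DMSO. In KMS-12 there were 2567 and 2792 in JQ1 and 3230 and 4198 in DMSO. In RPMI8226 there were 3034 and 3568 in JQ1 and 2809 and 3856 in DMSO. The ratio was thus higher in JQ1 in KMS-11 (2.06-fold), lower in JQ1 in KMS-12 (0.727-fold) and overlapping in RPMI8226. These ratios were not tested.

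The 7 protein genes moved less than NEAT1, by a wide margin in KMS-11 and KMS-12, and not all in the same direction. SFPQ and PSPC1 rose in all 3 lines, TARDBP rose in KMS-12 and RPMI8226, RBM14 and HNRNPK rose in KMS-12, DAZAP1 fell in KMS-11, and NONO passed the test in no line. Their log2 changes lay between -0.50 and 0.83, beside 0.60 to 2.82 for NEAT1. These directions hold with TMM scaling. On the unscaled library size, NONO, RBM14, HNRNPK, TARDBP and DAZAP1 were called lower in KMS-12 JQ1, SFPQ passed the test in no line, and PSPC1 passed it in RPMI8226 but in neither KMS line.

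Of the 9 genes together, 4 were called higher in KMS-11, where 17.3% of all genes tested were, and 1 was called lower, where 21.2% were. In KMS-12, 7 were called higher against 20.2% of all genes and 0 lower against 25.7%. The count of 0 lower genes in KMS-12 was also 0 by edgeR at an unadjusted p under 0.05, by DESeq2 and by limma-voom, but it was 5 by edgeR with library size alone as the scale. In RPMI8226, 5 were called higher against 13.6% of all genes and 0 lower against 18.6%. The lower count in RPMI8226 was 1 by edgeR at an unadjusted p under 0.05, 1 by DESeq2 and 1 by limma-voom, and the gene was DAZAP1 in each case. In the average of the lines, 7 were called higher against 22.3% of all genes and 1 lower against 26.7%, or 8 against 49% in either direction. In KMS-12 the count of 7 in either direction stood against 46%. All 9 genes averaged at least 10 CPM, and genes of that level were called more often than all genes. In a fit of the 10130 such genes, 3213 were called higher and 3381 lower in KMS-12. In the average of the lines 3490 were called higher and 3651 lower. The shares beside the gene lists further below include genes of low count too. The RPMI8226 count of 5 in either direction, where 32.2% of all genes were called, depended on single libraries: it was 2 without JQ1 replicate 1 or without DMSO replicate 1, 3 without either other RPMI8226 library, and 8 without KMS-11 DMSO replicate 1. The KMS-11 count of 5 (38.5% of all genes) was 3 without KMS-11 JQ1 replicate 2.

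The directions of these counts depended on the scale. On the scale of library size alone, edgeR called 2 of the 9 genes higher in KMS-12 JQ1, where 4.41% of all genes were, and 5 lower, where 54.4% were. The higher genes were MALAT1 and NEAT1, and the lower ones were NONO, RBM14, HNRNPK, DAZAP1 and TARDBP. In the average of the lines on that scale, MALAT1 and NEAT1 were called higher (9.01% of all genes) and NONO, HNRNPK and DAZAP1 lower (44.1% of all genes). The same 2 genes were called higher and the same 3 lower in KMS-11, where 9.5% of all genes were higher and 30.4% lower. In RPMI8226, MALAT1, NEAT1, PSPC1 and TARDBP were called higher, where 12.7% of all genes were, and DAZAP1 lower, where 19.5% were. MALAT1 and NEAT1 were thus called higher in all 3 lines on both scales, which held for no protein gene.

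SFPQ, a splicing factor of the paraspeckle core that is essential for the body to form, had 537 and 591 CPM in the KMS-11 JQ1 libraries, against 455 and 456 in DMSO. In KMS-12 it had 720 and 752 CPM in JQ1 and 419 and 409 in DMSO. In RPMI8226 it had 584 and 561 CPM in JQ1 and 460 and 492 in DMSO. The groups did not overlap in any line, and the widest gap was in KMS-12. SFPQ rose by a log2 value of 0.83 in KMS-12 (SE 0.09; edgeR, BH-adjusted p = 1.14e-06) and by 0.47 in the average of the lines (SE 0.05; edgeR, BH-adjusted p = 9.11e-07). It rose by 0.31 in KMS-11 (SE 0.09; edgeR, BH-adjusted p = 0.0140), a call lost without KMS-11 JQ1 replicate 2 (0.24; edgeR, BH-adjusted p = 0.128). It rose by 0.27 in RPMI8226 (SE 0.09; edgeR, BH-adjusted p = 0.0370), a call lost without any 1 of the 8 KMS-12 and RPMI8226 libraries (0.22 to 0.31; edgeR, BH-adjusted p 0.0554 to 0.234).

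In the edgeR fit given above, SFPQ was the protein gene whose response was called different between lines (F test, edgeR, BH-adjusted p = 0.00441). Its response in KMS-12 exceeded that in KMS-11 by 0.52 on the log2 scale (SE 0.13; edgeR, BH-adjusted p = 0.00818), and the response of RPMI8226 minus that of KMS-12 was -0.57 (SE 0.13; edgeR, BH-adjusted p = 0.00420). KMS-12 was therefore the line with the largest rise of SFPQ as well as of NEAT1. With library size alone the first of these differences was not called and the other changed sign, to 0.17. Among the 10 alternatives that kept all libraries, the F test of SFPQ was lost in 2. The F tests of DAZAP1 and HNRNPK were each called in 3 of those 10. With the replicate block within each line, PSPC1 (edgeR, BH-adjusted p = 0.0425) and RBM14 (edgeR, BH-adjusted p = 0.0296) also differed between lines, so that 5 of the 9 genes did. Without KMS-11 DMSO replicate 1 the count was 6, with NONO, RBM14 and HNRNPK added.

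PSPC1, a relative of SFPQ and NONO, was the least read of the 7 and had 32.0 and 30.2 CPM in KMS-11 JQ1, against 26.4 and 21.6 in DMSO. In KMS-12 it had 51.4 and 53.6 CPM in JQ1 and 27.7 and 31.4 in DMSO. In RPMI8226 it had 42.1 and 40.7 CPM in JQ1 and 29.3 and 33.9 in DMSO. Its JQ1 libraries lay above its DMSO libraries in every line. PSPC1 rose by 0.83 on the log2 scale in KMS-12 (SE 0.12; edgeR, BH-adjusted p = 2.60e-05) and by 0.53 in the average of the lines (SE 0.07; edgeR, BH-adjusted p = 6.47e-06). The rises of 0.37 in KMS-11 (SE 0.13; edgeR, BH-adjusted p = 0.0258) and 0.39 in RPMI8226 (SE 0.12; edgeR, BH-adjusted p = 0.0232) were each lost without 3 of the single libraries of that line. Those were both JQ1 libraries and DMSO replicate 2 in KMS-11 (0.25 to 0.41; edgeR, BH-adjusted p 0.0533 to 0.170), and both JQ1 libraries and DMSO replicate 1 in RPMI8226 (0.29 to 0.42; edgeR, BH-adjusted p 0.0593 to 0.213). Processed copies of PSPC1 elsewhere in the genome held 301 reads, 3.32% of those on the gene, and at most 0.592% for the other protein genes.

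NONO, the usual partner of SFPQ, had 370 and 344 CPM in KMS-11 JQ1, against 333 and 407 in DMSO, and these overlapped. In KMS-12 it had 346 and 354 CPM in JQ1 and 320 and 285 in DMSO, and in RPMI8226 385 and 391 in JQ1 and 333 and 320 in DMSO, without overlap. The log2 changes of NONO were -0.05 in KMS-11 (SE 0.10), 0.21 in KMS-12 (SE 0.10) and 0.25 in RPMI8226 (SE 0.10), none past the test. In the average of the lines NONO stood at 0.14 (SE 0.06; edgeR, BH-adjusted p = 0.0721), and passed with the replicate block within each line (0.14; edgeR, BH-adjusted p = 0.0497), with no filter on low counts (0.13; edgeR, BH-adjusted p = 0.0470), by limma-voom (0.14; adjusted p = 0.0404) and without KMS-11 DMSO replicate 2 (0.19; edgeR, BH-adjusted p = 0.00316). Scaled by library size alone, NONO was called lower in the average, at -0.22 (edgeR, BH-adjusted p = 0.00234). The direction for NONO therefore depended on the scale in KMS-12 and in the average of the lines. In RPMI8226 its log2 change stayed between 0.19 and 0.27 in the 10 alternatives that kept all libraries, and it passed in 2 of them.

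RBM14, a coactivator protein needed to assemble paraspeckles, had 186 and 170.3 CPM in KMS-12 JQ1, against 132 and 120.3 in DMSO. It rose there by 0.50 on the log2 scale (SE 0.11; edgeR, BH-adjusted p = 0.000971) and by 0.26 in the average of the lines (SE 0.06; edgeR, BH-adjusted p = 0.00204), but stood at -0.27 and -0.10 with library size alone. In KMS-11 it had 108 and 126 CPM in JQ1 and 98.9 and 117 in DMSO, which overlapped, and in RPMI8226 127 and 115 in JQ1 and 107 and 110 in DMSO, which did not. Neither line passed, with log2 values of 0.11 (SE 0.11) and 0.16 (SE 0.11). RBM14 shares exons with a readthrough gene, RBM14-RBM4, so its reads are uncertain to that extent.

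TARDBP, the gene of TDP-43, which controls splicing, had 201 and 197 CPM in KMS-12 JQ1, against 145 and 150 in DMSO, and 232 and 226 CPM in RPMI8226 JQ1, against 176 and 171 in DMSO. TARDBP rose by 0.43 in KMS-12 (SE 0.09; edgeR, BH-adjusted p = 0.000473), by 0.40 in RPMI8226 (SE 0.09; edgeR, BH-adjusted p = 0.00154) and by 0.33 in the average of the lines (SE 0.05; edgeR, BH-adjusted p = 1.65e-05). In KMS-11 it had 172 and 164 CPM in JQ1 and 145 and 153 in DMSO, a log2 difference of 0.18 (SE 0.09) that did not pass. With library size alone TARDBP stood at -0.34 in KMS-12 and -0.02 in the average, and kept its rise of 0.37 in RPMI8226 (edgeR, BH-adjusted p = 0.00168).

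HNRNPK, an RNA-binding protein of nucleus and cytoplasm, had 644 and 682 CPM in KMS-12 JQ1, against 530 and 561 in DMSO, and rose by 0.28 on the log2 scale (SE 0.09; edgeR, BH-adjusted p = 0.0211). Without either KMS-12 JQ1 library or DMSO replicate 1 of that line HNRNPK no longer passed (0.24 to 0.32; edgeR, BH-adjusted p 0.0520 to 0.150), and it stood at -0.49 with library size alone. In KMS-11 the HNRNPK libraries were at 479 and 477 CPM in JQ1 and 469 and 533 in DMSO, and in RPMI8226 at 348 and 344 in JQ1 and 299 and 304 in DMSO. Neither line passed the test, with log2 values of -0.07 (SE 0.09) and 0.20 (SE 0.09). The average of the lines was 0.14 (SE 0.05; edgeR, BH-adjusted p = 0.0436), and that call was lost in 11 of 12 fits that left out a library and held without KMS-11 DMSO replicate 2.

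DAZAP1, which binds RNA and shuttles between nucleus and cytoplasm, was the member called lower in JQ1. It had 150 and 142 CPM in KMS-11 JQ1, against 203 and 211 in DMSO, and fell by 0.50 on the log2 scale (SE 0.09; edgeR, BH-adjusted p = 0.000212). In KMS-12 it had 156 and 163 CPM in JQ1 and 180 and 174 in DMSO (log2 -0.15, SE 0.09, not called). That KMS-12 value was called at -0.92 with library size alone (edgeR, BH-adjusted p = 5.18e-08), at -0.45 with library size computed without MALAT1 and NEAT1 (edgeR, BH-adjusted p = 0.000247) and at -0.24 with genes of at least 10 CPM (edgeR, BH-adjusted p = 0.0165). In RPMI8226 it had 163 and 146 CPM in JQ1 and 184 and 178 in DMSO. The RPMI8226 difference of -0.22 (SE 0.09; edgeR, BH-adjusted p = 0.0652) passed in 6 of the 10 alternatives that kept all libraries, with values of -0.28 to -0.22 and adjusted p from 0.00999 by edgeR among genes of at least 10 CPM to 0.0434 by limma-voom. One of these was the replicate block within each line (-0.23; edgeR, BH-adjusted p = 0.0422). It also passed without either KMS-11 DMSO library. In the average of the lines DAZAP1 fell by 0.29 (SE 0.05; edgeR, BH-adjusted p = 0.000113), and it stood between -0.65 and -0.28 under the other scalings tried.

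**Figure D2:**
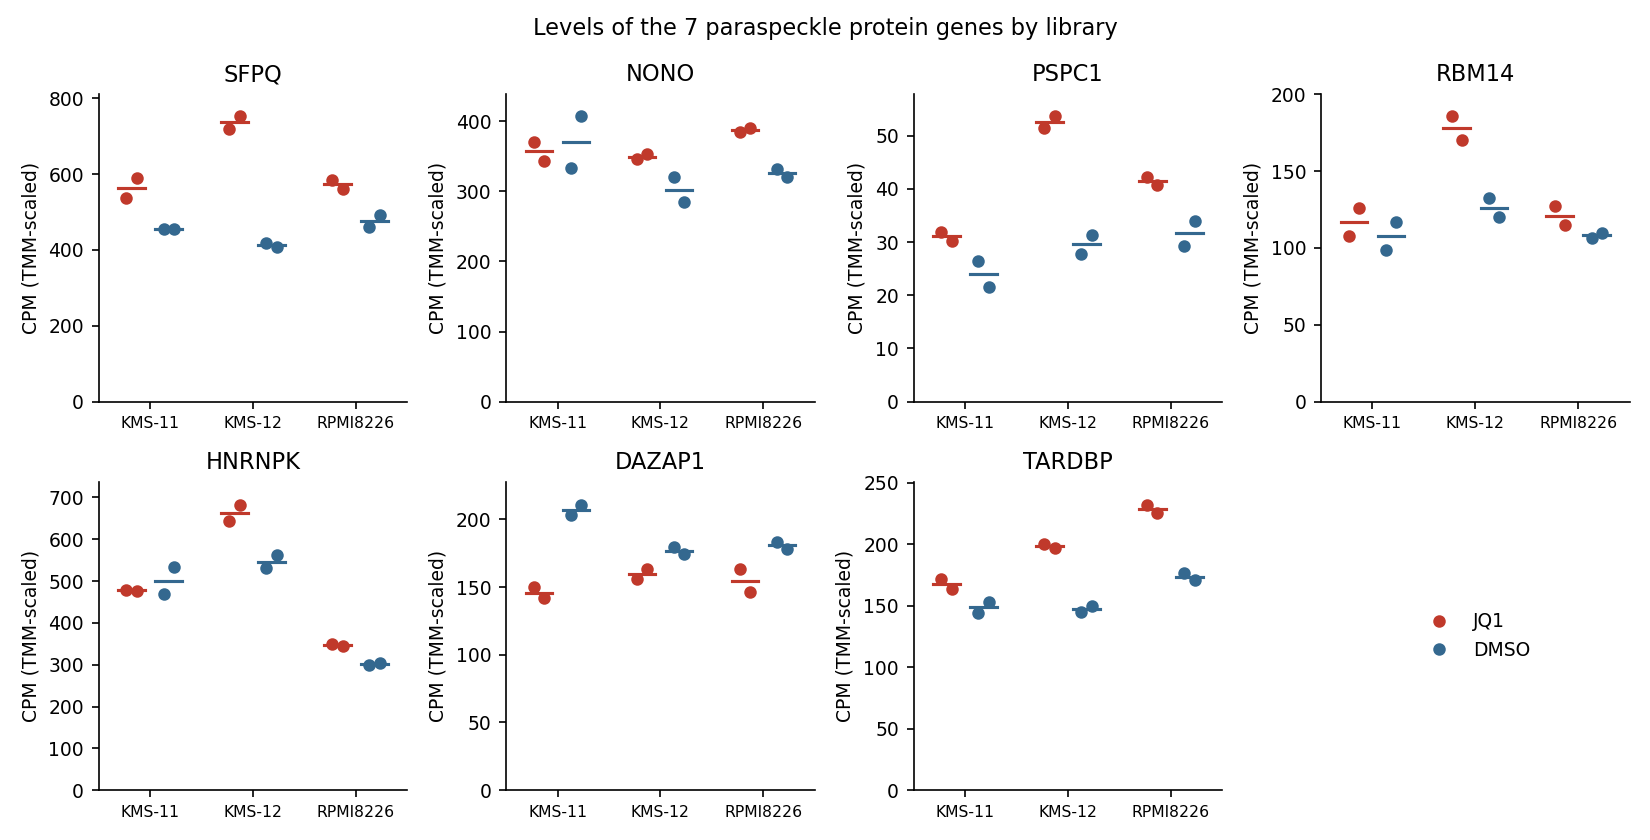
CPM (TMM-scaled library sizes, axis from 0) of the 7 paraspeckle protein genes in each library, with JQ1 in red left of DMSO in blue; points are libraries and bars are means of 2. SFPQ and PSPC1 lie higher in JQ1 in all 3 lines, DAZAP1 lies lower, and the NONO, RBM14 and HNRNPK points of KMS-11 overlap.

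The scale decided several of these calls. Library size alone shifted all log2 changes by -0.26 in KMS-11, -0.77 in KMS-12, -0.03 in RPMI8226 and -0.35 in the average of the lines relative to TMM. Library size computed without the MALAT1 and NEAT1 counts, an alternative chosen after seeing the data, shifted them by -0.04, -0.31, 0.01 and -0.11. Among all genes called in the average of the lines, 45.56% were higher in JQ1 with TMM and 16.97% with library size alone. In KMS-12 the shares were 44.03% with TMM, 24.59% without MALAT1 and NEAT1 in the library size, and 7.492% with library size alone. Read counts are relative, and amounts per cell cannot be read from either scale.

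**Figure D3:**
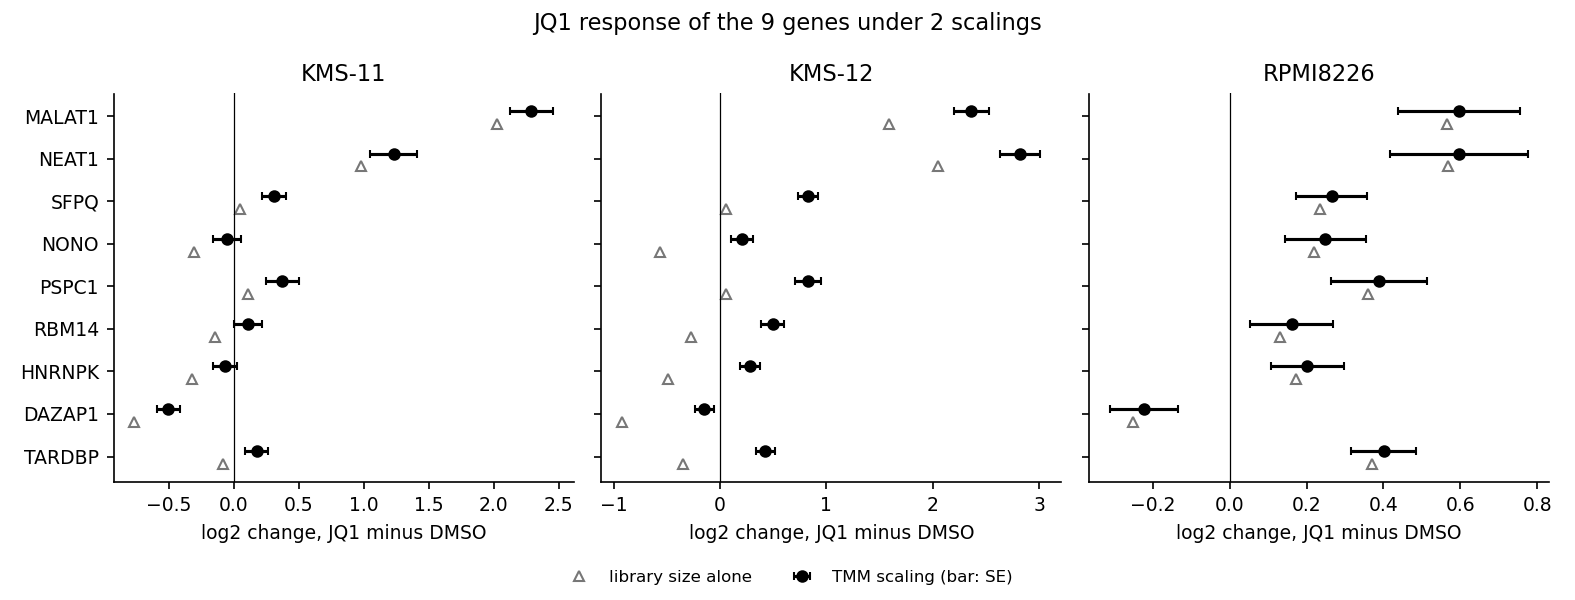
Log2 change, JQ1 minus DMSO, of the 9 genes in each line, with TMM scaling (black, bar is 1 SE) and with library size alone (grey triangles); each panel has its own horizontal scale. MALAT1 and NEAT1 lie right of 0 under both scales, while in KMS-12 NONO, RBM14, HNRNPK and TARDBP change sides and in KMS-11 RBM14 and TARDBP do.

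The ratio of each protein gene's reads to those of NEAT1 is free of that choice. In every line all 7 protein genes had fewer reads per NEAT1 read in JQ1 on average. In KMS-11 the log2 differences of these ratios ran from -0.86 for PSPC1 to -1.75 for DAZAP1, and in KMS-12 from -1.99 for PSPC1 and SFPQ to -2.97 for DAZAP1, with no overlap of groups for any of the 7 in either line. In RPMI8226 they ran from -0.20 for TARDBP and PSPC1 to -0.82 for DAZAP1, and the groups overlapped for SFPQ, PSPC1 and TARDBP. For SFPQ there were 5.21 and 5.84 reads per 1000 NEAT1 reads in KMS-12 JQ1, against 20.6 and 23.4 in DMSO. In KMS-11 there were 13.4 and 17.5 in JQ1 and 34.0 and 25.3 in DMSO, and in RPMI8226 28.9 and 34.6 in JQ1 and 34.4 and 46.0 in DMSO. For NONO there were 2.5002 and 2.75 in KMS-12 JQ1, against 15.7 and 16.3 in DMSO. These ratios carry the NEAT1 rise itself and were given no test. The protein genes thus did not keep pace with NEAT1 in KMS-11 or KMS-12, and the gap was widest in KMS-12, where NEAT1 rose most.

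**Figure D4:**
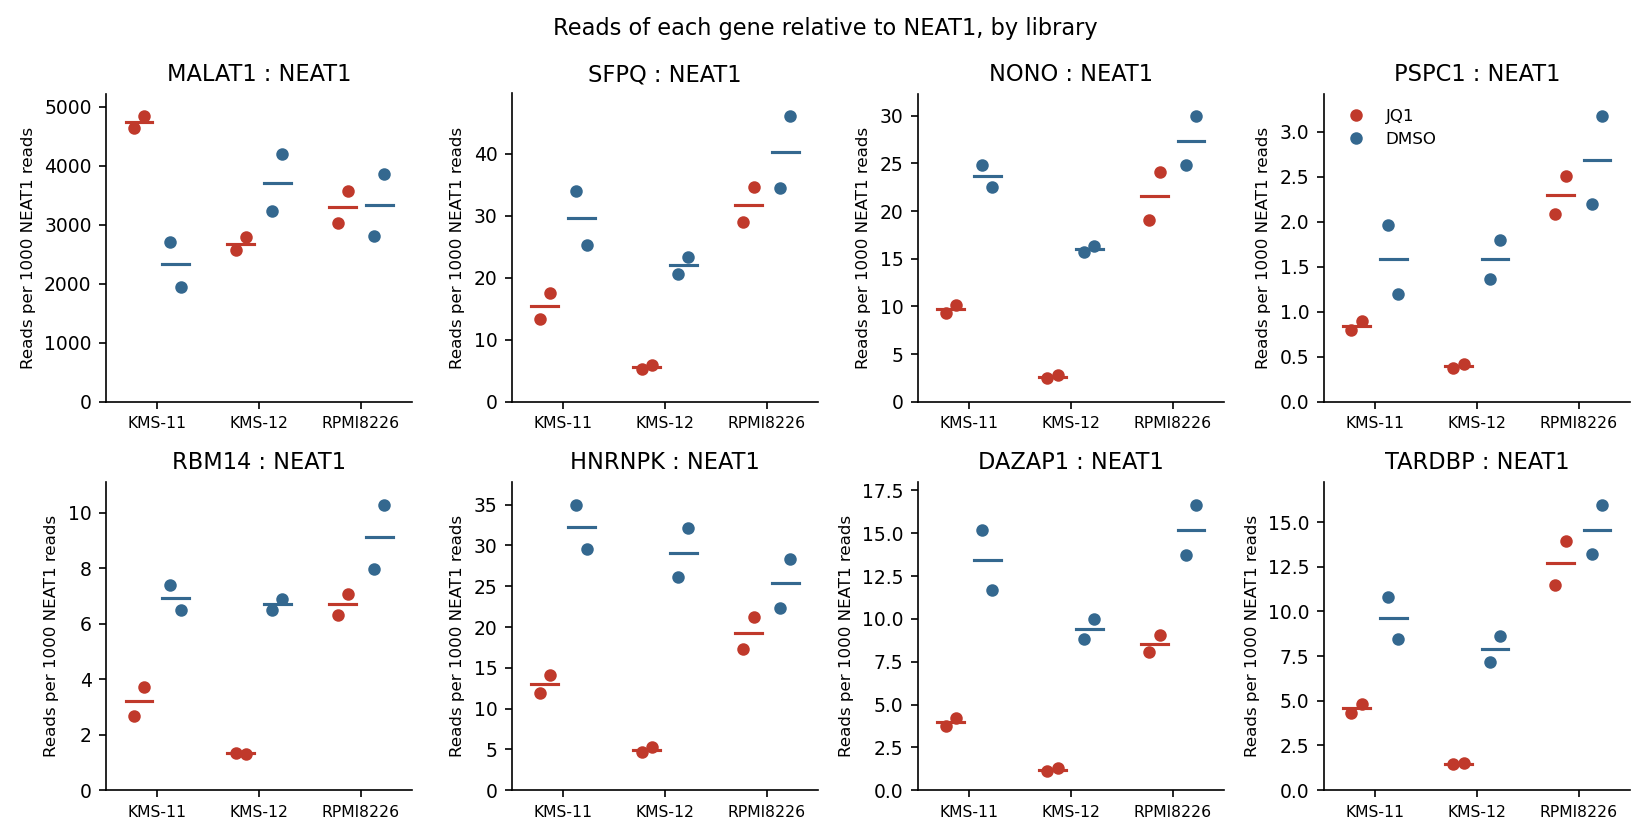
Reads of MALAT1 and of the 7 protein genes per 1000 NEAT1 reads in each library (axes from 0), with JQ1 in red left of DMSO in blue; bars are means of 2. All protein genes sit lower in JQ1 in KMS-11 and KMS-12, and MALAT1 sits higher in KMS-11 JQ1 (4644 and 4839) and lower in KMS-12 JQ1 (2567 and 2792).

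Levels were compared between genes per kilobase of annotated exon, as the CPM of the unscaled library divided by the exon length in kilobases. MALAT1 averaged 29172 in KMS-12 JQ1 and 9668 in KMS-12 DMSO on this scale, NEAT1 averaged 4229 and 1020, HNRNPK 93.4 and 131, SFPQ 71.4 and 68.5, NONO 47.6 and 70.2, and PSPC1 7.86 and 7.54. These values serve to compare genes within a group. Between JQ1 and DMSO they follow library size alone, so that HNRNPK lies lower in KMS-12 JQ1 here but was called higher with TMM. SFPQ and PSPC1, also called higher there with TMM, lie close to their DMSO values here. MALAT1 was highest, NEAT1 next and PSPC1 lowest of the 9 in all 6 groups. The NEAT1 value spreads its reads over the whole 22767 bases of the long isoform, and reads of the short isoform count towards it.

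In DMSO the lines themselves differed in 6 of the 9 genes, where an F test called 80.2% of all genes tested: MALAT1, NEAT1, NONO, PSPC1, HNRNPK and TARDBP. KMS-12 minus KMS-11 was called higher for 2 members and lower for 2, where 30.2% and 32.7% of all genes were (62.9% in all). RPMI8226 minus KMS-11 was called higher for 2 and lower for 1, where 30% and 28.2% were (58.2% in all), and RPMI8226 minus KMS-12 higher for 1 and lower for 3, where 33.2% and 29.3% were (62.5% in all). MALAT1 averaged 69440 ± 5438 CPM in KMS-12 DMSO, 39396 ± 2570 in RPMI8226 DMSO and 35729 ± 855 in KMS-11 DMSO (SD, n = 2). KMS-12 stood above KMS-11 by a log2 value of 0.96 (SE 0.16; edgeR, BH-adjusted p = 4.07e-05) and RPMI8226 minus KMS-12 was -0.82 (SE 0.16; edgeR, BH-adjusted p = 0.000212), while RPMI8226 and KMS-11 were not told apart (0.14, SE 0.16). NEAT1 averaged 18884 ± 2018 CPM in KMS-12, 15717 ± 3285 in KMS-11 and 12034 ± 1903 in RPMI8226, and RPMI8226 minus KMS-12 was called at -0.65 (SE 0.18; edgeR, BH-adjusted p = 0.00420). Without RPMI8226 DMSO replicate 2 that NEAT1 difference was -0.49 and did not pass (edgeR, BH-adjusted p = 0.0703). KMS-12 thus had the highest MALAT1 level and the highest mean NEAT1 level in DMSO as well as in JQ1.

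HNRNPK differed most between lines in DMSO among the protein genes. It averaged 301 ± 3.43 CPM in RPMI8226, against 501 ± 45.4 in KMS-11 and 546 ± 22.1 in KMS-12 (SD, n = 2). The differences were -0.73 against KMS-11 (SE 0.09; edgeR, BH-adjusted p = 3.12e-06) and -0.86 against KMS-12 (SE 0.10; edgeR, BH-adjusted p = 3.42e-07). For NONO, PSPC1 and TARDBP the differences between DMSO groups were at most 0.40 in size, and their F tests each failed in some of the 12 fits that left out a library. The count of 6 fell to 2 without RPMI8226 DMSO replicate 2.

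The genes whose pattern over the 6 group means was most like that of NEAT1, by the root mean square difference of centred log2 CPM among 10131 genes of at least 10 CPM, were RELL1 (0.23), BMP8B (0.30) and EIF4A3 (0.32). MALAT1 was in place 5 at 0.33, beside a median of 1.27 over all genes compared. RELL1 changed by 1.02, 2.78 and 0.43 on the log2 scale in KMS-11, KMS-12 and RPMI8226, values like those of NEAT1. For MALAT1 the nearest were NFKBIZ (0.30), NEAT1 itself (0.33) and SQSTM1 (0.34). Of the protein genes, HNRNPK came nearest to NEAT1, in place 1238 at 0.92, and DAZAP1 was farthest, in place 4942 at 1.26. This measure describes 6 group means and was not tested. It takes in the DMSO differences between lines as well as the JQ1 changes, so a near place need not mean a like response. With the lines ordered as for RELL1, HNRNPK changed by -0.07, 0.28 and 0.20 under JQ1. SFPQ (0.31, 0.83 and 0.27) and PSPC1 (0.37, 0.83 and 0.39) rose more but lay farther off, at places 1419 and 1314.

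Of 30 other genes for proteins reported in paraspeckles, 17 rose in the average of the lines, 4 fell and 9 did not pass, where 22.3% of all genes tested rose and 26.7% fell. The median log2 change was 0.23 beside -0.10 over all genes tested. CIRBP, a cold-inducible RNA-binding protein, rose by 1.33 (SE 0.05; edgeR, BH-adjusted p = 2.40e-12), with 377 and 385 CPM in KMS-11 JQ1 against 149 and 145 in DMSO. In KMS-12 CIRBP had 276 and 290 CPM in JQ1 and 98.9 and 110 in DMSO, and in RPMI8226 322 and 291 in JQ1 and 132 and 142 in DMSO, and its JQ1 libraries lay above its DMSO libraries in each line. HNRNPH1, a splicing factor, rose by 0.58 (SE 0.06; edgeR, BH-adjusted p = 1.43e-07). BCL11A, a transcription factor, fell by 1.38 (SE 0.09; edgeR, BH-adjusted p = 5.07e-09). By library size alone, 6 of the 30 were higher and 14 lower in the average of the lines, where 9.01% of all genes were higher and 44.1% lower. The median of all genes on that scale was -0.43.

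Of 12 genes for nuclear speckle and splicing proteins, 9 rose in the average of the lines, 1 fell and 2 did not pass, beside 22.3% and 26.7% of all genes, with a median of 0.38. SON, a scaffold of the speckle, rose by 0.82 (SE 0.06; edgeR, BH-adjusted p = 3.00e-09), ACIN1 by 0.73 (SE 0.06) and the splicing factor SRSF2 by 0.60 (SE 0.06). SRSF1, a splicing factor of the same family as SRSF2, fell by 0.54 (SE 0.05; edgeR, BH-adjusted p = 1.09e-07). With library size alone 4 of the 12 were higher and 4 lower (9.01% and 44.1% of all genes).

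Of 12 genes for RNase P, RNase Z and METTL16, which act on the 3′ ends of MALAT1 and NEAT1 or bind there, 3 rose, 3 fell and 6 did not pass, with a median of 0.03. These counts were near the shares of all genes that rose (22.3%) and fell (26.7%). POP5 rose by 0.72 (SE 0.08; edgeR, BH-adjusted p = 1.16e-06) and POP1 by 0.50 (SE 0.09; edgeR, BH-adjusted p = 0.000218). RPP25 fell by 1.72 (SE 0.24; edgeR, BH-adjusted p = 1.11e-05) and POP7 by 0.54 (SE 0.10; edgeR, BH-adjusted p = 0.000290). The average for RPP25 rests partly on very few reads, with 2 in KMS-12 JQ1 and 48 in KMS-12 DMSO. RPP25 had 64 reads in JQ1 and 146 in DMSO in KMS-11, and 652 and 956 in RPMI8226. In RPMI8226, 0 of the 12 genes were called lower. POP1, POP5, POP7 and RPP25 all encode proteins of RNase P. Under scaling by library size alone, 1 of the 12 was higher and 8 lower (9.01% and 44.1% of all genes).

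Among 7 other nuclear or abundant long non-coding RNAs tested, 1 rose in the average of the lines, 3 fell and 3 did not pass, beside 22.3% and 26.7% of all genes, with a median of -0.15. NORAD, which binds Pumilio proteins, rose by 0.38 (SE 0.05; edgeR, BH-adjusted p = 9.97e-06), but was at 0.93 in KMS-12, 0.13 in KMS-11 and 0.08 in RPMI8226. FIRRE fell by 1.95 (SE 0.16; edgeR, BH-adjusted p = 1.13e-08), MIAT by 1.03 (SE 0.07; edgeR, BH-adjusted p = 1.70e-09) and PVT1, a neighbour of MYC, by 0.60 (SE 0.07; edgeR, BH-adjusted p = 3.21e-06). With library size alone 0 of the 7 were higher and 5 lower (9.01% and 44.1% of all genes). RN7SL1, the RNA of the signal recognition particle, took 0.321% to 1.54% of the counts and rose by 0.60 in the average of the lines (SE 0.11; edgeR, BH-adjusted p = 0.000205). In KMS-12 its change of 0.43 was not called, and its mean share of counts was lower in JQ1 (0.396%) than in DMSO (0.503%). The rows used for RN7SK, RN7SL2, RMRP and RPPH1, also abundant RNAs, held 0 reads in every group. Ranks of genes by reads therefore leave these RNAs out.

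Both directions occurred among the genes around NEAT1 and MALAT1. Of 11 neighbours tested within 161 kb of the start of NEAT1, 5 rose in the average of the lines, 3 fell and 3 did not pass, beside 22.3% and 26.7% of all genes, with a median of 0.23. TALAM1, the antisense partner of MALAT1, was not analysed here. FRMD8, whose 5′ end lies at -36.17 kb from the NEAT1 start, had 63.9 and 75.9 CPM in KMS-11 JQ1, against 33.6 and 33.0 in DMSO. In KMS-12 FRMD8 had 266 and 246 CPM in JQ1 and 94.3 and 95.4 in DMSO, and in RPMI8226 59.6 and 52.8 in JQ1 and 49.2 and 49.4 in DMSO. It rose by 0.90 in the average of the lines (SE 0.06; edgeR, BH-adjusted p = 8.11e-10), and at 0.19 in RPMI8226 it did not pass there.

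On the MALAT1 side, LTBP3, which binds latent TGF-beta, had 9.42 and 9.87 CPM in KMS-11 JQ1, against 35.8 and 27.1 in DMSO, and fell in all 3 lines, by 1.84 in the average (SE 0.08; edgeR, BH-adjusted p = 4.31e-12). FAM89B had 46.4 and 48.1 CPM in KMS-12 JQ1, against 9.48 and 7.90 in DMSO, and rose by 1.01 in the average of the lines (SE 0.11; edgeR, BH-adjusted p = 3.26e-07), with -0.12 in RPMI8226. DPF2, a BAF complex subunit below NEAT1, rose by 0.39 in the average of the lines (SE 0.07; edgeR, BH-adjusted p = 6.20e-05). When library size alone set the scale, 3 of the 11 neighbours were higher and 5 lower (9.01% and 44.1% of all genes).

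**Figure D5:**
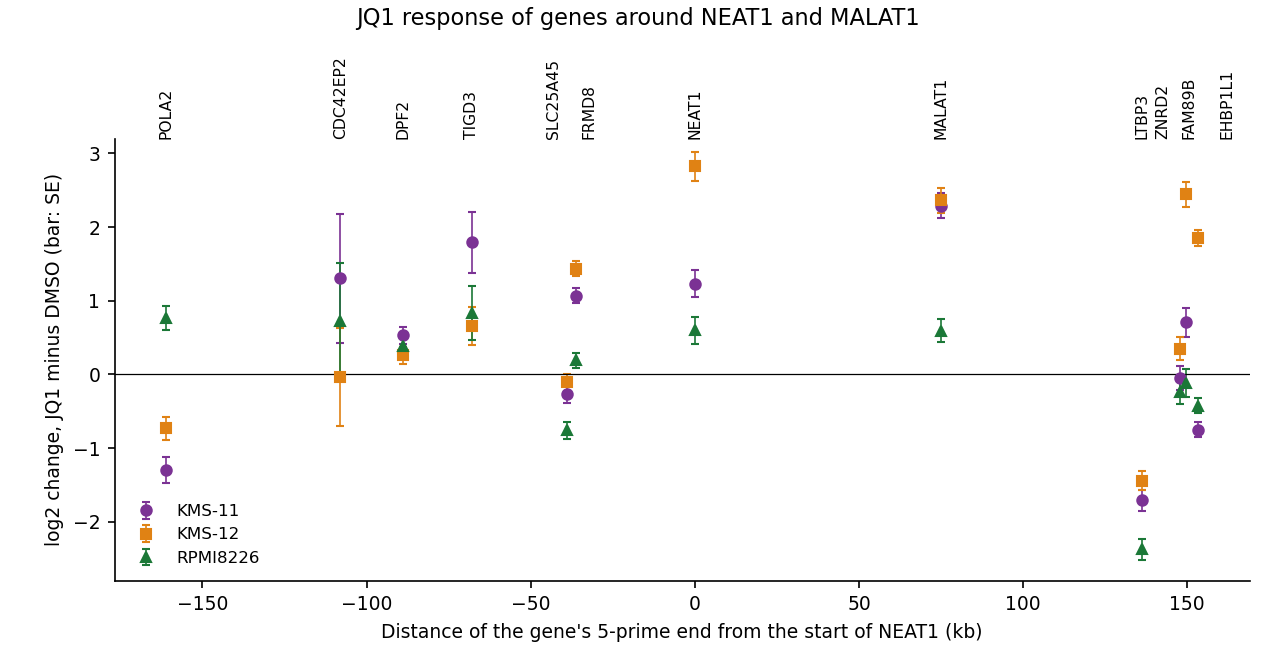
Log2 change, JQ1 minus DMSO (TMM scaling, bar is 1 SE), of NEAT1, MALAT1 and 10 of the neighbouring genes by the distance of each gene's 5′ end from the NEAT1 start (kb), with a symbol for each line. NEAT1, MALAT1, FRMD8 and DPF2 lie above 0 in all lines, LTBP3 lies below 0 in all lines, and FAM89B differs in sign between lines.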

How the data were processed

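RNA of 12 libraries (3 lines, JQ1 or DMSO, 2 each) was analysed from whole-number read counts per gene, as deposited. Stranded libraries were made from total RNA without ribosomal RNA, per the labels' protocols. The submitters' processing notes name hg38 and GRCh38.p13, DESeq2 and MACS2, with no role. No source used here gives the aligner, counter or annotation. Symbols matched 60437 of the IDs (99.62%), and positions came from GENCODE 29 on GRCh38.

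The members and gene lists were chosen with earlier results of these data known. The text names all members, up to 4 genes of each other list with the smallest adjusted p in the average of the lines, FRMD8, and the 3 genes nearest to NEAT1 and to MALAT1 in pattern. Some genes that this rule covers are counted in their lists but are not reported here. In R 4.3.3, edgeR 4.0.16 was used with filterByExpr (minimum count 10, total 15), TMM, 1 mean for each of 6 groups, glmQLFit (robust) and quasi-likelihood F tests, on totals of 15424512 to 27366499 counts. Fits without a library take the spread of its lone partner from the other groups. Other scalings, filters, DESeq2 1.42.0, limma-voom (limma 3.58.1) and replicate blocks were tried, and the code was tested on simulated counts. The main fit did not pair libraries. For the block within each line, the replicate numbers were taken as pairs from the data, not from the labels. Over 10132 genes, deviations of JQ1 and DMSO replicate 1 from group means correlated at 0.184 for KMS-11, 0.112 for KMS-12 and 0.464 for RPMI8226. Between groups of different lines they ran from -0.0956 to 0.256, so 2 of these 3 values lie within that range.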

Additional observations from a re-analysis of the deposited data

Results flagged for a closer look

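The response to JQ1 differed between the 3 lines for MALAT1 (F test, edgeR, Benjamini-Hochberg adjusted p = 1.23e-05), NEAT1 (edgeR, Benjamini-Hochberg adjusted p = 1.12e-05) and SFPQ (edgeR, Benjamini-Hochberg adjusted p = 0.00441). The MALAT1 responses were log2 2.29 for KMS-11, 2.36 for KMS-12 and 0.60 for RPMI8226, and the NEAT1 responses were 1.23, 2.82 and 0.60 in the same order of lines. The SFPQ responses were 0.31, 0.83 and 0.27. The log2 ratio of MALAT1 to NEAT1 reads, JQ1 minus DMSO, was 1.04 in KMS-11 and -0.46 in KMS-12. Within each of these lines the ratios of the JQ1 and DMSO libraries did not overlap. This difference between lines was not tested.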

How the results depend on the processing

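The calls of MALAT1 and NEAT1 in KMS-11, KMS-12 and the average of the lines kept direction and threshold under every alternative run. The cause of the changes below was not tested. With library size alone, 5 members (2 higher, 3 lower) were called in the average of the lines and 6 differed between lines. The log2 values that changed sign there were -0.14 for RBM14 and -0.083 for TARDBP in KMS-11; -0.56 for NONO, -0.27 for RBM14, -0.49 for HNRNPK and -0.34 for TARDBP in KMS-12; and -0.22 for NONO, -0.10 for RBM14, -0.21 for HNRNPK and -0.018 for TARDBP in the average. Among differences of responses, MALAT1 KMS-12 minus KMS-11 became -0.44, and SFPQ became 0.19 for RPMI8226 minus KMS-11 and 0.17 for RPMI8226 minus KMS-12. With library size computed without MALAT1 and NEAT1, NONO stood at -0.10 and HNRNPK at -0.026 in KMS-12, the MALAT1 difference at -0.19 and that of SFPQ (RPMI8226 minus KMS-11) at 0.012. In DMSO levels on that scale, NONO (KMS-12 minus KMS-11) was 0.0089, DAZAP1 (KMS-12 minus KMS-11) 0.070 and TARDBP (RPMI8226 minus KMS-12) -0.0063. At a mean of at least 10 CPM, 3 members were called in RPMI8226 and NEAT1 there stood at 0.54 (edgeR, adjusted p = 0.0608); with no filter it was 0.60 (edgeR, adjusted p = 0.0974). The number of members that differed between lines was 5 with DESeq2, 5 with limma-voom and 5 with the replicate block within each line. The block changed no call other than those given with the results and, common to all lines, that of DAZAP1 in DMSO levels (edgeR, adjusted p = 0.0465). Leaving out 1 library gave 3 to 5 called members in KMS-11, 6 to 8 in KMS-12, 2 to 8 in RPMI8226, 7 to 9 in the average, 3 to 6 that differed between lines and 2 to 7 in DMSO levels. In those fits the log2 values ran from 0.53 to 0.66 for MALAT1 and 0.43 to 0.77 for NEAT1 in RPMI8226. In KMS-11 they ran from -0.19 to 0.12 for NONO, -0.0039 to 0.25 for RBM14 and -0.16 to 0.044 for HNRNPK. For differences of responses they ran from -0.013 to 0.17 for MALAT1 (KMS-12 minus KMS-11) and -0.11 to 0.027 for SFPQ (RPMI8226 minus KMS-11). With 2 libraries a group, changes near the SE of the protein genes (0.09 to 0.13 on the log2 scale) were not detectable.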
